A study of Mus musculus with 2 samples.

Results

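The 6 genes described here encode chemokines that attract T cells, *Cxcl9*, *Cxcl10*, *Cxcl11* and *Cxcl16*, and the receptors that bind them, *Cxcr3* and *Cxcr6*. They were chosen by gene symbol from the 33696 genes listed in the deposited single-cell matrices, and were followed across macrophage, dendritic, tumor, T and NK cells. CXCL9, CXCL10 and CXCL11 are induced by interferon and bind CXCR3, a receptor of activated T cells and NK cells. CXCL16 is made as a membrane-bound protein that ADAM10 and ADAM17 can release, and it binds CXCR6, a receptor of effector and tissue-resident T cells. In tumors, macrophages and dendritic cells are known sources of these chemokines, and CD8 T cells are known targets.

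CT26, a mouse colon carcinoma line, had been grown under the skin of male BALB/c mice. One library came from untreated tumors (UT) and the other from tumors treated with BUP-Gel, a hydrogel that carries the local anesthetic bupivacaine. Each library pooled cells of 3 tumors, so a condition is represented by a single library, and no test between UT and BUP-Gel was possible. The UT mice are labelled as having had no treatment, so effects of the gel and of the drug cannot be told apart. Live cells had been sorted into CD45+ (immune) and CD45- fractions and mixed before loading, and the labels and the methods give different mixing ratios, so the shares of cell types are not read as those of the tumors.

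The UT library held 83228442 unique molecular identifiers (UMIs, 1 for each captured RNA molecule) and the BUP-Gel library 89918925. After filtering, 7163 UT cells with a median of 8430 UMIs and 6776 BUP-Gel cells with a median of 10420 UMIs remained, and 68 cell barcodes occurred in both libraries. Clustering without the 6 genes gave 23 clusters. Names ending in -like rest on marker transcripts. The macrophage-like class had 4 clusters, one led by *Cxcl3* and *Thbs1* (1247 UT and 804 BUP-Gel cells), one led by *C1qa*, *C1qb* and *C1qc* (1104 and 464), a cycling C1q cluster (240 and 62) and an interferon-led cluster with *Rsad2*, *Cmpk2* and *Ifit2* (199 and 80). Beside these stood cDC1-like cells (72 and 88), migratory dendritic-like cells (75 and 67), non-cycling and cycling CD8 T-like cells (319 and 493, 172 and 270), a cluster of regulatory and gamma-delta T-like cells (113 and 87) and NK-like cells (489 and 346).

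Tumor-like cells fell into a cluster led by *Krt20* and *Esm1* (458 and 729 cells) and a cycling cluster (176 and 237), in which 23.2% of cells had high doublet scores. A large CD45- cluster led by *Aspn* and *Ogn* (496 and 1466 cells) had few Y-linked transcripts (5.43 CPM, UMIs of a gene per 1000000 UMIs of the cells). The immune clusters of these male hosts had 113 CPM or more, fibroblast-like cells 123 CPM and the tumor-like clusters only 2.67 and 11.1 CPM. By this measure the cluster was like the tumor-like cells. Only 2 of 5 keratin markers reached 1 CPM, so it was not named as tumor and is given separately. A cluster with both T cell and macrophage transcripts, in which 44.7% of cells had high doublet scores, was kept out of every class. All levels are in CPM. Each molecule is counted once at its 5′ end, so no correction for transcript length was needed. Exact 95% intervals are given. They hold the error of counting alone, without the variation from mouse to mouse or between preparations.

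The genes for the 3 CXCR3 ligands lie side by side on chromosome 5 of GRCm39, within 44.1 kb between positions 92469206 and 92513344, all on the minus strand. *Cxcl9* spans 92469206 to 92475945, *Cxcl10* spans 92494497 to 92496748 and *Cxcl11* spans 92507403 to 92513344, each with 4 exons. *Cxcl16* lies apart on chromosome 11 (70344517 to 70352620, minus strand, 5 exons). *Cxcr3* is on the X chromosome (100775141 to 100777875, minus strand) and *Cxcr6* on chromosome 9 (123635534 to 123640825, plus strand), each with 2 exons. The reference genome is that of C57BL/6, a strain whose *Cxcl11* carries a frameshift, and GENCODE marks its canonical transcript as loss of function. The tumors grew in BALB/c mice, and the values below are of RNA.

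The 300 bases before the annotated start of each CXCR3 ligand gene are shown because the ligands share a locus and yet differed in which macrophages held them. Each runs 5′ to 3′ on the minus strand, with capitals for matches, on either strand, to the core of the interferon-stimulated response element (ISRE, GAAANNGAA) or to the NF-κB consensus.

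Cxcl9, chr5:92475946-92476245: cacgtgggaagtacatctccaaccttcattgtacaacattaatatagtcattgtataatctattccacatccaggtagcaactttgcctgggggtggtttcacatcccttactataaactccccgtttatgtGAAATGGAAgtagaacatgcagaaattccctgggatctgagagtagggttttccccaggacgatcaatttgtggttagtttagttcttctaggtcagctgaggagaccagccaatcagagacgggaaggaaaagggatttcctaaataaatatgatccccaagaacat
Cxcl10, chr5:92496749-92497048: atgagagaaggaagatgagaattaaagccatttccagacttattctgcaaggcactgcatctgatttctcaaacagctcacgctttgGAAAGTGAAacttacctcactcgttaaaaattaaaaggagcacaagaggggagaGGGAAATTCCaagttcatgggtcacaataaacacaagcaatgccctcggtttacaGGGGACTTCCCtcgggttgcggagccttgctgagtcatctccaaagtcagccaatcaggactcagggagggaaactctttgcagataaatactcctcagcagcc
Cxcl11, chr5:92513345-92513644: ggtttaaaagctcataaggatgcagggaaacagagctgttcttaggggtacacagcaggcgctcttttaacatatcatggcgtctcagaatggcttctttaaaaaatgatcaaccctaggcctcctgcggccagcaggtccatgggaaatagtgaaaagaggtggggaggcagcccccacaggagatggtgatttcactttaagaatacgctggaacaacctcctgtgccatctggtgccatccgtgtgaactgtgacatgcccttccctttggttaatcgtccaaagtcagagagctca

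The ISRE core occurred once before *Cxcl9*, from 168 to 160 bases before the start, and once before *Cxcl10*, from 213 to 205 bases before it. The NF-κB consensus occurred only before *Cxcl10* among these genes, at 159 to 150 bases and in a pair of overlapping matches between 104 and 94 bases before the start. No match lay in the windows of *Cxcl11* or *Cxcl16*. The interferon-gamma-activated GAS motif (TTCNNNGAA, no overlap with the ISRE core) was in none of the 4 ligand windows. Of 21756 protein-coding genes with a window of this length, 9.29% held the ISRE core, 9.20% the GAS motif and 8.84% the NF-κB consensus. The matches describe letters and not sites in use.

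Macrophage-like cells held most of the transcripts of all 4 ligands. Of the 10409 *Cxcl9* UMIs of the UT library, 78.9% were in macrophage-like cells, and of the 4332 of the BUP-Gel library 61.7% were. The class made up 39.0% and 20.8% of the cells. The same shares were 74.8% and 54.6% for *Cxcl10*, 83.0% and 75.2% for *Cxcl11*, and 75.7% and 59.3% for *Cxcl16*. A further 11.8% and 14.8% of *Cxcl9* UMIs lay in the mixed T cell and macrophage cluster. The receptors were distributed differently. CD8 T-like cells held 63.9% and 66.0% of *Cxcr6* UMIs, and the mixed cluster a further 23.2% and 23.7%. *Cxcr3*, with only 364 and 256 UMIs in all, was spread over NK-like cells (23.1% and 15.6%), cDC1-like cells (10.99% and 25.0%), the regulatory and gamma-delta T-like cells (10.7% and 16.8%), CD8 T-like cells (12.4% and 8.59%), the mixed cluster (22.8% and 16.8%) and macrophage-like cells (12.9% and 7.81%), where its level was low (1.51 and 1.34 CPM).

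**Figure D1:**
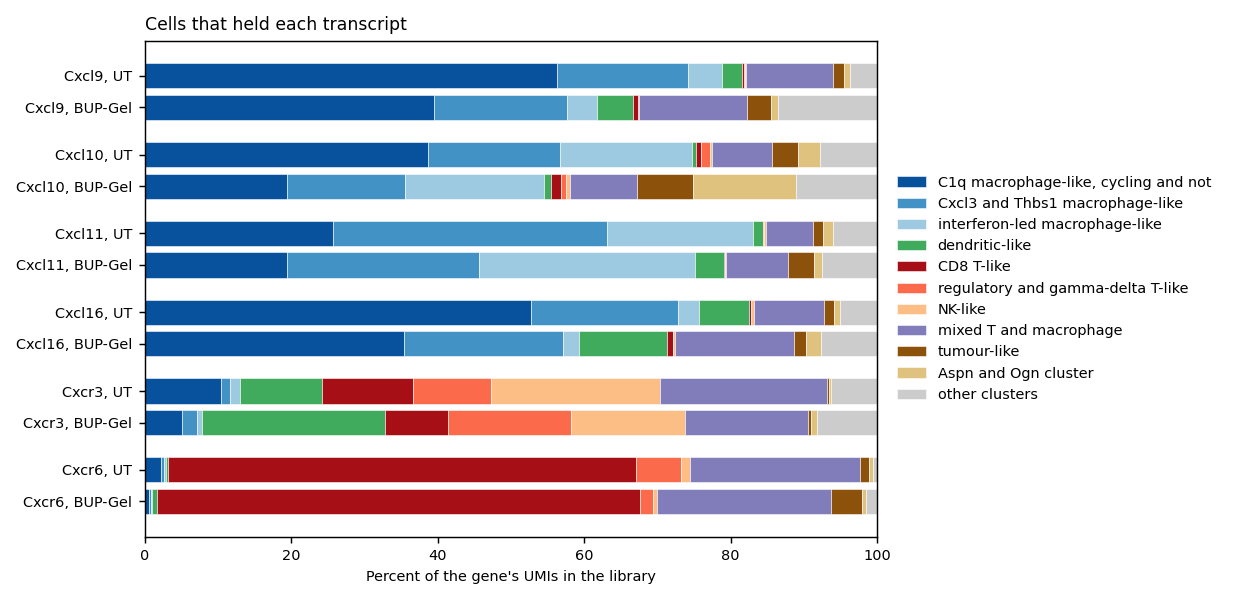
Division of each gene's UMIs over the cell clusters, in percent of the gene's UMIs in that library, with 1 bar for the UT and 1 for the BUP-Gel library. Blue shades are macrophage-like cells, which held 78.9% of UT and 61.7% of BUP-Gel *Cxcl9* UMIs; red is CD8 T-like cells, which held 63.9% and 66.0% of *Cxcr6* UMIs.

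*Cxcl9* was abundant in the C1q macrophage-like cells, with 295 CPM in UT and 263 CPM in BUP-Gel. The cycling C1q cells had 345 and 157 CPM and the interferon-led cells 270 and 219 CPM. These 3 clusters overlapped between libraries, so their order is not resolved. Within each library all 3 had higher values than cDC1-like cells, with 196 and 128 CPM, and the *Cxcl3* and *Thbs1* macrophage-like cells, with 184 and 109 CPM, although in BUP-Gel the interval of the cycling C1q cells (133 to 184) overlapped that of the cDC1-like cells (110 to 148). Migratory dendritic-like cells followed with 66.5 and 48.9 CPM. In T-like, NK-like and tumor-like clusters *Cxcl9* stayed between 1.67 and 25.7 CPM.

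*Cxcl10*, which type I and type II interferons both induce, stood highest in the interferon-led macrophage-like cells. It had 1601 CPM in UT and 1805 CPM in BUP-Gel there, against 454 and 166 CPM in cycling C1q cells, 281 and 223 CPM in C1q cells and 281 and 170 CPM in *Cxcl3* and *Thbs1* cells. *Cxcl11* was also highest there, with 395 and 573 CPM, followed by 130 and 56.6 CPM in *Cxcl3* and *Thbs1* cells. The C1q clusters had 27.1 to 56.7 CPM of *Cxcl11*. Both genes were kept out of the clustering, but *Rsad2*, *Cmpk2* and *Ifit2*, which lead the interferon-led cluster, were not. Since interferon also induces *Cxcl10* and *Cxcl11*, their high level in this cluster is not an independent result.

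*Cxcl16* differed from the other 3 ligands. Its highest level was in migratory dendritic-like cells, with 966 CPM in UT and 823 CPM in BUP-Gel, above the C1q macrophage-like cells, with 393 and 376 CPM, and the cycling C1q cells, with 391 and 371 CPM. The cDC1-like cells had 346 and 279 CPM. The interferon-led cells, which stood highest for *Cxcl10* and *Cxcl11*, had only 229 and 200 CPM of *Cxcl16*, a range that overlapped the 281 and 219 CPM of the *Cxcl3* and *Thbs1* cells.

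**Figure D2:**
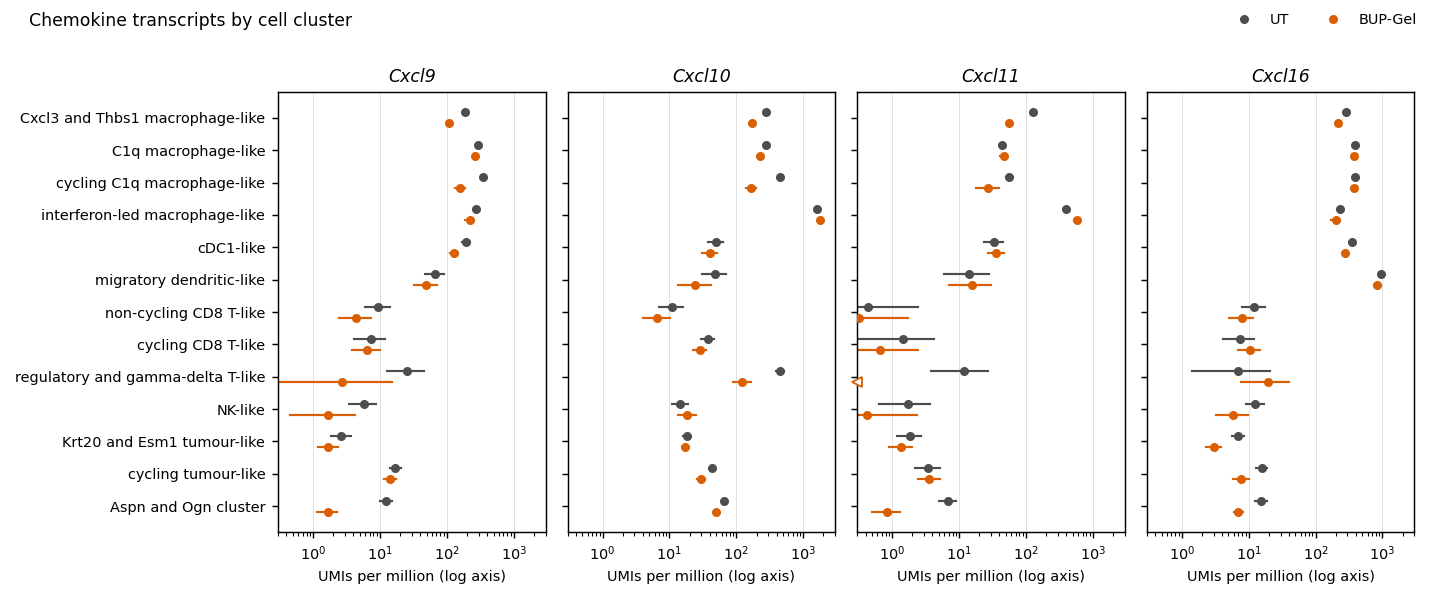
Level of the 4 chemokines in the macrophage, dendritic, T, NK and tumor clusters and the *Aspn* and *Ogn* cluster, in CPM on a log axis, with 1 point for each library (gray UT, orange BUP-Gel) and its 95% counting interval; open triangles at the axis mark 0 UMIs, and some intervals run past the left edge. *Cxcl10* and *Cxcl11* stood highest in interferon-led macrophage-like cells (1601 and 1805 CPM, 395 and 573 CPM) and *Cxcl16* in migratory dendritic-like cells (966 and 823 CPM).

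The ligands also differed in how evenly the cells of a cluster carried them. *Cxcl16* had a UMI in 88.2% of UT and 88.1% of BUP-Gel C1q macrophage-like cells, *Cxcl9* in 41.2% and 38.1%, and *Cxcl10* in 27.9% and 30.8%. With each cell thinned to 2000 UMIs, which left out 86 UT and 37 BUP-Gel macrophage-like cells of lower depth, these shares were 50.5% and 55.7% for *Cxcl16*, 21.8% and 21.1% for *Cxcl9* and 15.7% and 15.5% for *Cxcl10*. As background, *Cxcl9* had a UMI in 6.27% and 2.43% of non-cycling CD8 T-like cells, at a median of 6311 and 5783 UMIs against 12269 and 11078.5 in the C1q cells. The 10% of all macrophage-like cells with most UMIs of a ligand held 78.8% and 87.9% of its UMIs for *Cxcl9*, 86.9% and 83.7% for *Cxcl10* and 95.3% and 97.3% for *Cxcl11*. For *Cxcl16* they held 35.9% and 37.9%. The single highest cells had 204 UMIs of *Cxcl9* and 166 of *Cxcl10* in UT, and no macrophage-like cell had more than 39 of *Cxcl16*.

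Pooled over their clusters, macrophage-like cells with *Cxcl9* carried *Cxcl10* more often than those without it. At 2000 UMIs, *Cxcl10* was detected in 34.4% of UT cells with *Cxcl9* and in 15.5% of UT cells without it. In BUP-Gel the same shares were 24.4% and 15.7%. *Cxcl11* was detected in 21.8% of UT cells with *Cxcl10* and 3.92% of those without, and in 37 of 231 cells with it and 3.07% of those without it in BUP-Gel. *Cxcl16* was detected in 57.9% of UT cells with *Cxcl9* and 38.2% of those without, and in 58.7% and 34.4% in BUP-Gel. Between cells with and without *Cxcl10* its shares lay closer, at 43.7% and 41.3% in UT and 41.6% and 36.6% in BUP-Gel. Cells of 1 library are not replicates, and these shares are descriptions.

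Over the whole macrophage-like class, all 4 ligands had lower CPM in BUP-Gel. *Cxcl9* had 264 CPM in UT (8210 UMIs, 258 to 270) and 179 CPM in BUP-Gel (2673 UMIs, 172 to 186), a log2 ratio of BUP-Gel over UT of -0.56 (-0.63 to -0.50). *Cxcl10*, at 381 and 278 CPM, was at -0.45 (-0.50 to -0.40). The ratios of *Cxcl11* (94.2 and 78.6 CPM) and *Cxcl16* (346 and 290 CPM) were both -0.26, with intervals of -0.36 to -0.16 and -0.31 to -0.20. None of the 6 genes reached a 1.5-fold difference in this class, where 3.31% of the 12160 genes with at least 50 UMIs were that much higher and 5.76% that much lower in BUP-Gel. The median log2 ratio was -0.26 over the 6 genes and -0.09 over all genes tested.

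These ratios moved with the mix of clusters and with single cells. With the BUP-Gel clusters weighted as in UT, a choice made after seeing the data, the log2 ratios were -0.44 for *Cxcl9*, -0.40 for *Cxcl10* and -0.14 for *Cxcl16*. Without the 5 cells of each library with most UMIs of the gene, also chosen after seeing the data, *Cxcl9* had a ratio of -0.72 and *Cxcl10* of -0.56. Cycling C1q cells, high in *Cxcl9* and *Cxcl10*, were 3.35% of UT and 0.915% of BUP-Gel cells. A separate osteoclast-like cluster led by *Ctsk* and *Acp5* (84 and 60 cells), not counted as macrophage-like, had higher values in BUP-Gel for *Cxcl9*, with 123 and 168 CPM (0.46, 0.05 to 0.86), and *Cxcl11*, with 40.5 and 78.9 CPM (0.96, 0.30 to 1.65). In that cluster *Cxcl10* was at -0.02 (-0.40 to 0.35) and *Cxcl16* at -0.58 (-0.87 to -0.29), and 5 BUP-Gel cells held 70.3% of the *Cxcl9* and 92.3% of the *Cxcl11* UMIs. Its markers also differed between libraries. Osteoclast genes summed to 1397 CPM in UT and 13040 CPM in BUP-Gel, and genes of cDC2 or monocyte-derived dendritic cells to 1910 and 1099 CPM. The name thus covers unlike mixes of cells, whose part in these ratios was not tested.

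Within the clusters the ligands diverged. In the *Cxcl3* and *Thbs1* macrophage-like cells, *Cxcl9* (184 and 109 CPM, log2 ratio -0.76, -0.88 to -0.64), *Cxcl10* (281 and 170 CPM, -0.73, -0.83 to -0.63) and *Cxcl11* (130 and 56.6 CPM, -1.20, -1.36 to -1.03) were all more than 1.5-fold lower in BUP-Gel. *Cxcl16* was at -0.36 (-0.45 to -0.27). Of 4 ligands tested in this cluster 3 were thus lower and 0 higher, where 3.16% of 9960 genes were lower and 2.13% higher; the receptors had too few UMIs. At 2000 UMIs per cell, the share with *Cxcl9* was 12.1% in UT and 6.16% in BUP-Gel, and that with *Cxcl11* 8.15% and 4.78%. *Cxcl10* was detected in 15.97% and 13.84%, a smaller gap than its CPM shows.

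In the C1q macrophage-like cells the same genes lay closer together between libraries, all within 1.5-fold. *Cxcl9* had a log2 ratio of -0.16 (-0.25 to -0.08), *Cxcl10* of -0.33 (-0.42 to -0.24), *Cxcl11* of 0.07 (-0.14 to 0.28) and *Cxcl16* of -0.06 (-0.13 to 0.01). Here 0 of 5 genes tested passed 1.5-fold in either direction, where 4.20% of 10758 genes were higher and 3.16% lower. A sum of 5 macrophage genes (*Apoe*, *Ms4a7* and the genes of the C1q chains) came to 16990 CPM in UT and 17310 CPM in BUP-Gel in this cluster.

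Cycling C1q cells had low ratios as well, at -1.13 (-1.39 to -0.89) for *Cxcl9*, -1.46 (-1.70 to -1.22) for *Cxcl10* and -1.07 (-1.71 to -0.48) for *Cxcl11*. The 62 BUP-Gel cells carried only 151, 159 and 26 UMIs of these genes, and 5 BUP-Gel cells held 58.9% of the *Cxcl9* and 78.6% of the *Cxcl10* UMIs. With cells thinned to 2000 UMIs, *Cxcl9* was at -0.48 (-1.11 to 0.09) and *Cxcl10* at -0.69 (-1.30 to -0.13). *Cxcl16* was at -0.08 (-0.24 to 0.09). Of 4 ligands tested 3 were more than 1.5-fold lower and 0 higher, against 8.21% and 3.67% of 8631 genes.

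The interferon-led macrophage-like cells went the other way for 2 ligands. *Cxcl10* had a log2 ratio of 0.17 (0.08 to 0.26) and *Cxcl11* of 0.54 (0.36 to 0.71), while *Cxcl9* was at -0.31 (-0.56 to -0.05) and *Cxcl16* at -0.19 (-0.47 to 0.07). *Cxcl10* was detected in 62.3% of UT and 75.0% of BUP-Gel cells of this cluster, and in 48.7% and 61.1% at 2000 UMIs. The 5 highest cells held 41.6% and 53.8% of the *Cxcl11* UMIs. No ligand of the 4 tested passed 1.5-fold, where 3.71% of 5819 genes were higher and 5.45% lower. The difference between this cluster and the other macrophage-like clusters was not tested, since each condition is 1 library.

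**Figure D3:**
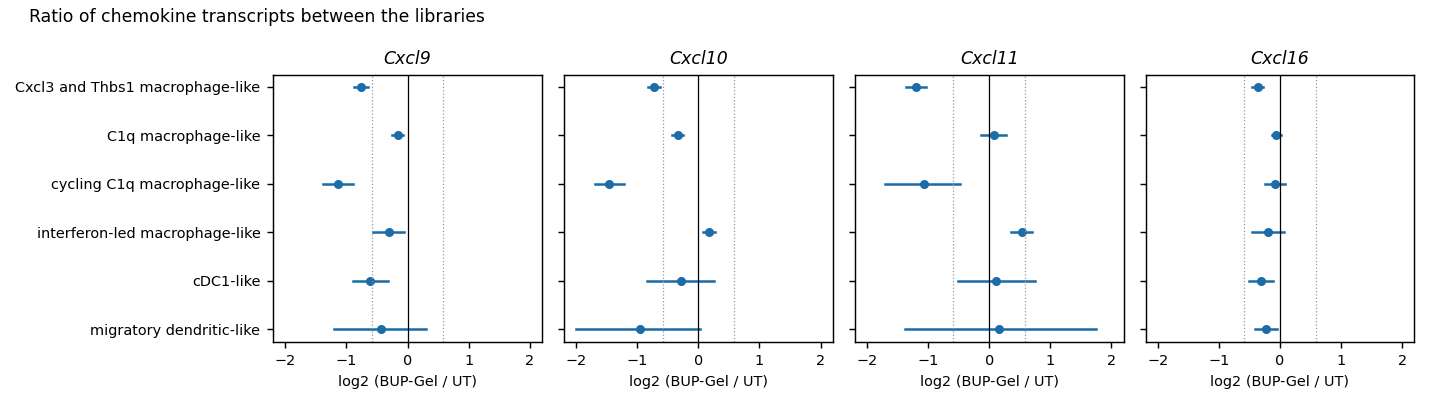
Log2 ratio of BUP-Gel over UT for the 4 chemokines in macrophage-like and dendritic-like clusters, with 95% counting intervals; dotted lines mark 1.5-fold. *Cxcl9*, *Cxcl10* and *Cxcl11* lay left of the lower line in the *Cxcl3* and *Thbs1* cells (-0.76, -0.73 and -1.20) and between the lines in the C1q cells (-0.16, -0.33 and 0.07).

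Among dendritic cells, the cDC1-like cells, which take up and cross-present tumor antigen, carried *Cxcl9* and *Cxcl16* but little *Cxcl10*. *Cxcl9* had 236 UMIs in UT and 186 in BUP-Gel, a log2 ratio of -0.61 (-0.89 to -0.33). The 5 highest cells held 71.6% and 59.7% of them, and at 2000 UMIs the shares of cells with *Cxcl9* were 15.9% in both libraries. *Cxcl10* had 48.9 and 40.0 CPM and *Cxcl11* 33.2 and 35.9 CPM, with intervals that overlapped between libraries. Of 5 genes tested 1, *Cxcl9*, was more than 1.5-fold lower and 0 were higher, where 9.26% of 6143 genes were lower and 2.77% higher. Macrophage genes summed to 1151 and 1123 CPM in these cells.

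Migratory dendritic-like cells, marked by *Ccr7*, *Fscn1* and *Ccl22*, had *Cxcl16* in 65 of 75 UT cells and 59 of 67 BUP-Gel cells. Its log2 ratio was -0.23 (-0.41 to -0.05), and that of *Cxcl9*, with 38 and 28 UMIs, was -0.44 (-1.20 to 0.30). Neither of these 2 genes, the only ones with enough UMIs, passed 1.5-fold, where 7.72% of 3329 genes were higher and 7.93% lower.

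Tumor-like cells, without the *Aspn* and *Ogn* cluster, carried little of the ligands. *Cxcl10* was the most abundant, with 26.9 CPM in UT (554 UMIs) and 20.7 CPM in BUP-Gel (575 UMIs), a log2 ratio of -0.38 (-0.55 to -0.20). It was lower in the *Krt20* and *Esm1* cluster (18.3 and 17.3 CPM) than in the cycling cluster (43.5 and 29.6 CPM). A UMI of *Cxcl10* was found in 13.4% and 12.7% of tumor-like cells, whose clusters had medians of 26708 and 34116 UMIs. In non-cycling CD8 T-like cells, at a median of 5928.5 UMIs, the shares were 5.64% and 2.84%. With both thinned to 2000 UMIs they were 3.33% and 2.29% in tumor-like and 1.64% and 1.08% in the CD8 T-like cells. In tumor-like cells 5 cells held 44.8% and 49.2% of the UMIs. The ratio depended on the processing. It was -0.80 (-1.02 to -0.59) with a stricter cell filter and -0.77 (-0.99 to -0.55) with 30 principal components in the clustering, both past 1.5-fold. It was -0.18 (-0.39 to 0.02) without the cells of highest doublet score and turned to 0.34 (-0.37 to 1.08) with cells thinned to 2000 UMIs, where only 26 and 50 UMIs remained.

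*Cxcl9*, *Cxcl11* and *Cxcl16* had 7.51 and 5.18, 2.38 and 1.98, and 9.99 and 4.36 CPM in tumor-like cells. *Cxcl16* had a log2 ratio of -1.20 (-1.53 to -0.87), and over the same cells the summed macrophage genes were lower in BUP-Gel, 167 and 56.8 CPM in the *Krt20* and *Esm1* cluster and 533 and 306 CPM in the cycling cluster. Their part in the *Cxcl16* difference was not tested. Of 5 genes tested in tumor-like cells, *Cxcr6* (33 and 157 UMIs, log2 ratio 1.82, 1.27 to 2.41) was more than 1.5-fold higher and *Cxcl16* more than 1.5-fold lower, where 2.21% of 12359 genes were higher and 3.61% lower. T cell markers moved with *Cxcr6* in the cycling tumor-like cells, where *Cd3e*, *Cd3d*, *Cd3g* and *Trac* summed to 30.7 and 150 CPM, and their part in it was not tested.

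The *Aspn* and *Ogn* cluster had more *Cxcl10* than the tumor-like cells, with 66.2 CPM in UT and 49.7 CPM in BUP-Gel (470 and 1074 UMIs), a log2 ratio of -0.41 (-0.57 to -0.25). It held 2.97% of the UT library's *Cxcl10* UMIs and 14.1% of those of BUP-Gel, where it was 6.92% and 21.6% of the cells. *Cxcl10* stood at 149 and 239 UMIs for every 1000 UMIs of the 5 macrophage genes in this cluster. The same values were 143 and 83.6 in *Cxcl3* and *Thbs1* macrophage-like cells, 16.5 and 12.9 in C1q macrophage-like cells and 385 and 489 in interferon-led cells. *Cxcl9* had 12.5 and 1.67 CPM, *Cxcl11* 6.76 and 0.833 CPM and *Cxcl16* 15.3 and 7.04 CPM, while the macrophage genes had 444 and 208 CPM. Their part in these differences was not tested. Of 4 genes tested, these 3 were more than 1.5-fold lower and 0 higher, where 5.06% of 11610 genes were lower and 1.25% higher.

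*Cxcr6* was abundant in CD8 T-like cells, though not in them alone. Non-cycling CD8 T-like cells had 612 CPM in UT (1417 UMIs, 580 to 644) and 529 CPM in BUP-Gel (1682 UMIs, 504 to 555), with a UMI in 266 of 319 and 402 of 493 cells, or 83.4% and 81.5%. Cycling CD8 T-like cells had 189 and 243 CPM, below the non-cycling cells in both libraries. As background, *Cxcr6* had a UMI in 0.324% and 0.468% of neutrophil-like cells at medians of 1882 and 2129 UMIs, and in 2.63% and 2.16% of C1q macrophage-like cells at 12269 and 11078.5 UMIs. Thinned to 2000 UMIs, the shares were 60.9% and 56.0% in non-cycling and 23.6% and 31.4% in cycling CD8 T-like cells.

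Over all CD8 T-like cells *Cxcr6* differed little between libraries, with 413 and 390 CPM and a log2 ratio of -0.08 (-0.17 to 0.01). Its ratio was -0.21 (-0.31 to -0.11) in non-cycling cells and 0.36 (0.18 to 0.54) in cycling cells, and thinned to 2000 UMIs it was -0.17 (-0.37 to 0.02) and 0.25 (-0.23 to 0.73). CD8 T-like cells were 6.86% of UT and 11.3% of BUP-Gel cells, and the libraries held 2823 and 3652 *Cxcr6* UMIs in all.

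The cluster of regulatory and gamma-delta T-like cells had both receptors. *Cxcr6* had 410 CPM in UT (175 UMIs) and 189 CPM in BUP-Gel (69 UMIs), a log2 ratio of -1.12 (-1.54 to -0.71), and *Cxcr3* had 91.3 and 118 CPM (39 and 43 UMIs), a ratio of 0.37 (-0.29 to 1.03). The cluster holds more than 1 kind of T cell, and its cells were split by marker genes, of which *Scart1* and *Il17a* were chosen after seeing the data. Among cells with a UMI of *Foxp3*, the factor that defines regulatory T cells, *Cxcr3* was found in 5 of 19 UT and 8 of 12 BUP-Gel cells and *Cxcr6* in 3 and 1. Among cells with *Trdc*, *Scart1* or *Il17a*, genes of gamma-delta T cells, *Cxcr6* was found in 16 of 22 and 5 of 11 cells and *Cxcr3* in 2 and 3. *Cxcr6* had 1112 CPM (107 UMIs, 912 to 1344) and 814 CPM (42 UMIs, 587 to 1101) in these few cells. Both values were above those of the non-cycling CD8 T-like cells. No cell had both kinds of marker, and 72 of 113 and 64 of 87 cells had neither.

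*Cxcl10* in this T cell cluster had 449 and 123 CPM, a range that overlapped those of the C1q and *Cxcl3* and *Thbs1* macrophage-like cells, but 5 cells held 83.3% and 88.9% of its UMIs and it was found in only 17 and 10 cells. Its log2 ratio was -1.87 (-2.37 to -1.39). *Cxcl11* had 5 UMIs in UT and 0 in BUP-Gel, where 3 UMIs would be 8.22 CPM. Of 3 genes tested in the cluster, *Cxcl10* and *Cxcr6* were more than 1.5-fold lower and 0 higher, where 11.2% of 2894 genes were lower and 5.11% higher. The macrophage genes had 477 and 416 CPM, and the medians were 3155 and 3695 UMIs per cell.

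*Cxcr3* was a rare transcript. Among the clusters named here as macrophage, dendritic, tumor, T or NK cells, its level in cDC1-like cells came next to that in regulatory and gamma-delta T-like cells, with 33.2 CPM in UT (40 UMIs) and 44.1 CPM in BUP-Gel (64 UMIs). NK-like cells followed with 24.0 and 16.7 CPM and cycling CD8 T-like cells with 15.1 and 6.02 CPM. In cDC1-like cells it had a UMI in 25 of 72 and 31 of 88 cells, or 34.7% (23.9 to 46.9) and 35.2% (25.3 to 46.1), and in migratory dendritic-like cells in 1 of 75 and 0 of 67, which allows up to 5.24 CPM. As background, C1q macrophage-like cells had a UMI in 2.17% and 1.94%, at a median of 11891 UMIs against 15640.5 in cDC1-like cells. Thinned to 2000 UMIs, the share in cDC1-like cells was 5.80% and 6.82%. A small cluster led by *Klk1* and *Siglech* (43 and 39 cells) was not given any of these names. All 4 listed markers of plasmacytoid dendritic cells were present in it, at 2952 CPM summed, beside B cell genes at 643 CPM. The paper calls a cluster with *Siglech* and *Klra17* plasmacytoid dendritic cells. This small cluster had 41.4 and 50.5 CPM of *Cxcr3* (16 and 14 UMIs), above the cDC1-like cells in each library, though from few UMIs. The T cell markers *Cd3e*, *Cd3d*, *Cd3g* and *Trac* summed to 23.2 and 33.1 CPM in the cDC1-like cells, against 4280 and 4551 CPM in non-cycling CD8 T-like cells, and 10.6% of them had high doublet scores.

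In NK-like cells *Cxcr3* had 84 UMIs in UT and 40 in BUP-Gel, with a UMI in 57 of 489 cells (11.7%) and 30 of 346 cells (8.67%) and a log2 ratio of -0.52 (-1.10 to 0.04). *Cxcr6* was in 3.48% and 3.47% of NK-like cells, at medians of 5193 and 5454.5 UMIs, and had 9.99 and 8.36 CPM there against 3.33 and 2.86 CPM in C1q macrophage-like cells. *Cxcl16*, with 44 and 14 UMIs, had a ratio of -1.10 (-2.08 to -0.21), beside macrophage genes at 258 and 212 CPM. Of 4 genes tested in NK-like cells *Cxcl16* was more than 1.5-fold lower and 0 were higher, where 6.53% of 8411 genes were lower and 1.18% higher.

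CD8 T-like cells had only 45 *Cxcr3* UMIs in UT and 22 in BUP-Gel, or 10.3 CPM (7.52 to 13.8) and 3.56 CPM (2.23 to 5.40), a log2 ratio of -1.53 (-2.34 to -0.77). Non-cycling cells had a UMI in 2.51% and 0.609% of cells, of which the BUP-Gel share was below that in C1q macrophage-like cells and is read as background. Cycling cells had one in 12.2% and 5.56%, and at 2000 UMIs in 4.24% and 1.52%, against 0.418% and 1.64% in cycling C1q macrophage-like cells. The BUP-Gel value of those C1q cells comes from only 61 cells. By CPM, *Cxcr3* in cycling CD8 T-like cells (31 and 18 UMIs, 15.1 and 6.02 CPM) was above that in C1q macrophage-like cells (30 and 10 UMIs, 2.04 and 1.69 CPM). At 2000 UMIs only 8 and 4 UMIs remained over the class, and the ratio of -1.63 had an interval of -3.82 to 0.27. Of 5 genes tested in CD8 T-like cells, *Cxcr3* and *Cxcl9* were more than 1.5-fold lower and 0 higher, where 5.11% of 9880 genes were lower and 1.88% higher. *Cxcl9*, with 37 and 33 UMIs, had a ratio of -0.67 (-1.39 to 0.05). In the non-cycling cells *Cxcl9* had 9.49 and 4.40 CPM beside macrophage genes at 321 and 177 CPM, and in the cycling cells 7.33 and 6.35 CPM beside 121 and 153 CPM, and their part in the difference was not tested. Neither had the 200 UMIs of a stricter minimum.

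**Figure D4:**
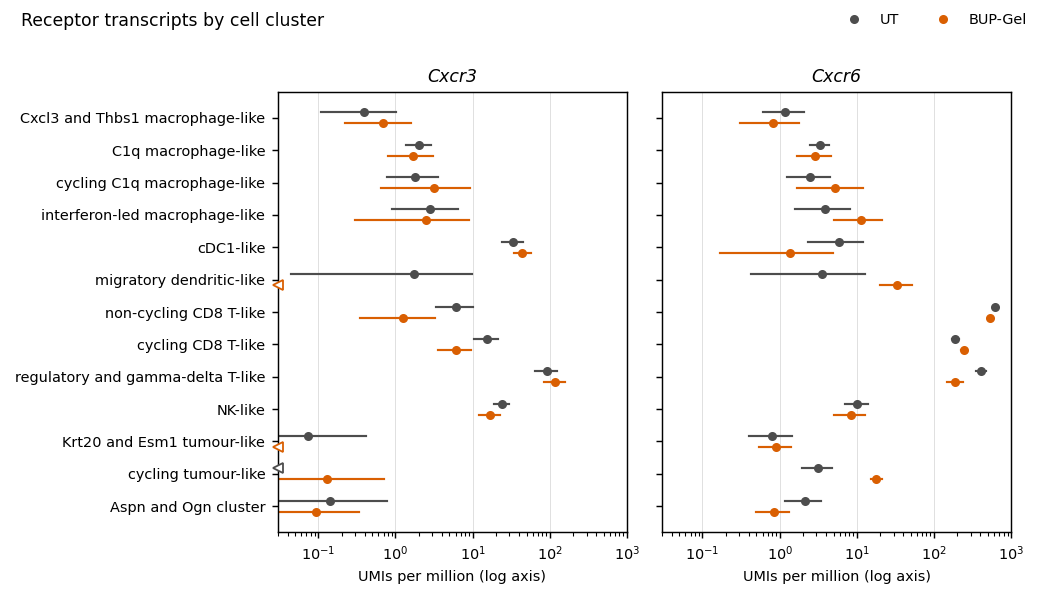
Level of *Cxcr3* and *Cxcr6* in the macrophage, dendritic, T, NK and tumor clusters and the *Aspn* and *Ogn* cluster, in CPM on a log axis, with 1 point for each library (gray UT, orange BUP-Gel) and its 95% counting interval; open triangles at the axis mark 0 UMIs, and some intervals run past the left edge. *Cxcr6* stood highest in non-cycling CD8 T-like cells (612 and 529 CPM), and *Cxcr3*, of the clusters plotted, in regulatory and gamma-delta T-like cells (91.3 and 118 CPM), followed by cDC1-like cells (33.2 and 44.1 CPM).

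The inputs and partners of these genes were followed in a list of 21 genes. In macrophage-like cells all 21 were tested, of which *Ifnb1* was more than 1.5-fold higher in BUP-Gel (2.38 and 4.55 CPM). *Ifng* (1.93 and 1.07 CPM) and *Eomes* (1.51 and 0.937 CPM) were more than 1.5-fold lower, and all 3 were at low levels. Among all genes tested, 3.31% were that much higher and 5.76% that much lower. In the interferon-led cells, the macrophage-like cluster with most *Ifnb1*, it was more than 1.5-fold lower (26.4 and 17.4 CPM, 47 and 14 UMIs). Its log2 ratio there was -0.60 (-1.575 to 0.29), while the share of cells with it was 5.025% and 11.25%. The list's median log2 ratio was -0.03, against -0.09 over all genes. *Irf1*, a transcription factor induced by interferon, was at -0.03 (-0.09 to 0.03), while *Socs1*, a feedback inhibitor, was at -0.52 (-0.63 to -0.42). *Tnf* and *Nfkb1*, of the NF-κB arm, were at 0.45 (0.41 to 0.50) and 0.42 (0.35 to 0.50). Within each cluster the ratio of *Tnf* was smaller. It was 0.17 (0.11 to 0.22) in *Cxcl3* and *Thbs1* cells and 0.28 (0.18 to 0.38) in C1q cells. In cycling C1q cells it was 0.08 (-0.16 to 0.315) and in interferon-led cells 0.29 (0.11 to 0.47). The part of the cluster mix in the class value was not tested. *Adam10* and *Adam17*, the sheddases of CXCL16, were at -0.01 (-0.11 to 0.08) and 0.26 (0.19 to 0.33).

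*Pf4*, a further chemokine that binds CXCR3, was more abundant than any of the 4 ligands in macrophage-like cells, with 1074 CPM in UT and 811 CPM in BUP-Gel and a log2 ratio of -0.41 (-0.44 to -0.38). In CD8 T-like cells 20 of the 21 genes were tested, with 0 more than 1.5-fold higher and only *Ifngr2* lower (9.17 and 3.24 CPM). Over all genes tested in this class 1.88% were higher and 5.11% lower. *Ifng*, the main inducer of *Cxcl9*, had 293 and 266 CPM there, a ratio of -0.14 (-0.25 to -0.03). *Tbx21* and *Eomes*, factors of effector T cells, were at -0.25 (-0.41 to -0.09) and 0.50 (0.29 to 0.72). In NK-like cells *Pf4*, at 26.2 and 81.1 CPM, was the only one of 18 tested genes past 1.5-fold, where 1.18% of all genes were higher and 6.53% lower. The share of cells with *Pf4* went the other way, from 13.9% to 5.49%. In tumor-like cells *Ifng* (33 and 118 UMIs) and *Tbx21* (17 and 53 UMIs), genes of T and NK cells, were higher and 0 of 19 lower. Over all genes 2.21% were higher and 3.61% lower there. *Ifng* and *Tbx21* moved with the T cell markers of the cycling tumor-like cells given above, whose part in it was not tested.

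For comparison, 6 other chemokine receptors were taken. In CD8 T-like cells 4 of them were tested and none passed 1.5-fold, with *Ccr2* at 56.6 and 57.7 CPM and *Ccr7* at 47.4 and 41.3 CPM, both below *Cxcr6*. In macrophage-like cells *Ccr7* was higher in BUP-Gel (5.02 and 12.5 CPM) among 5 tested. In tumor-like cells *Ccr2* (9.06 and 5.08 CPM), a receptor of monocytes, was lower, beside the lower macrophage genes given above. The shares over all genes in these classes are those given above.

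Across the 23 clusters, both libraries summed, genes whose log2(CPM + 1) was among the most like that of *Cxcr6* by Pearson correlation were *Trac* (0.98), *Gm44174*, *Cd3g*, *Ubash3a* and *Cd27* (0.94). For *Cxcr3* they were *Trp53i11* (0.86), *Septin6*, *Pacsin1* and *Cd7* (0.78). *Cxcl10* was most like *Rtp4* (0.92), *Irgm1*, *Ly6i*, *Oas1a* and *Cxcl11* (0.85), and *Cxcl11* most like *Irf7* (0.92), *Gm5431*, *Atp6v0c* and *Cd300c2*. *Cxcl9* was most like *Plau* (0.93), *Anpep*, *Cebpa*, *Cd302* and *Rab3il1*, and *Cxcl16* most like *Tnfrsf11a* (0.96), *Ifi30*, *Zmynd15*, *Plekho1* and *Sdc3*. Between ligand and receptor the correlations were low, from -0.14 for *Cxcl9* with *Cxcr6* to 0.09 for *Cxcl10* with *Cxcr3*. The clusters share 2 libraries and differ in depth, and these values are descriptions.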

How the data were processed

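Per the labels, the libraries are 10x 5′ v2, and the submitters' processing notes name Cell Ranger 8.0.1, Seurat 5.0.1 and GRCm39. The deposited values are counts of UMIs per gene and barcode, not normalized. Kept barcodes had over 100 UMIs, of which less than 20% were mitochondrial. Cells were clustered in Seurat 5.3.0 (R 4.3.3; 2000 variable genes, 20 components, resolution 0.5, no integration), first all cells and then those of clusters with *Ptprc* in at least 30% of cells, leaving the 6 genes and both comparison lists out of the variable genes. Clusters were named by hand from at least 3 markers. The gamma-delta part of a T-like name was an exception and rested on *Trdc* with the leading genes *Scart1* and *Il17a*. No doublets were removed. Scrublet (scanpy 1.11.5) marked the 6% of each library with the highest scores. Sums, exact Poisson, binomial and conditional intervals were computed in Python 3.11.15 with scipy 1.17.1 and checked on simulated data. A difference counts from 1.5-fold with at least 50 UMIs over both libraries. A count of 0 was taken to allow 3, which is below the upper end of its exact interval. Genes named beside the 6 come from a pathway list (21), a receptor list (6) and the 5 most alike across clusters (at least 200 UMIs in all and 50 CPM in 1 cluster). The genes, lists and markers were chosen with earlier results of these data known. Positions and sequences are from GRCm39 with GENCODE annotation. Alternatives are a stricter cell filter (1000 UMIs, 500 genes, 10% mitochondrial), resolution 1.0, 30 components, the compared genes kept, doublet removal, median-ratio scaling, thinning to 2000 UMIs, 200 UMIs or 2-fold for a difference, and 2 chosen after seeing the data (UT cluster weights, leaving out 5 cells of each library). Of the gamma-delta T markers only *Trdc* matched a listed symbol. Some genes of these lists are not reported here.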

Additional observations from a re-analysis of the deposited data

Results flagged for a closer look

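*Cxcr6* in cycling tumor-like cells was set apart because it went against *Cxcr6* in the regulatory and gamma-delta T-like cells under the same contrast. Its log2 ratio of BUP-Gel over UT was 2.51 (1.86 to 3.23), from 3.14 CPM (22 UMIs, in 11 of 176 cells) to 17.9 CPM (139 UMIs, in 35 of 237 cells), and in the T cell cluster it was -1.12. The difference was not tested, since each condition is 1 library. In the cycling tumor-like cells the T cell markers *Cd3e*, *Cd3d*, *Cd3g* and *Trac* moved the same way, from 30.7 to 150 CPM, and *Cd8a* with *Cd8b1* from 11.9 to 52.3 CPM, and 23.2% of cells had high doublet scores. Their part in the result was not tested.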

How the results depend on the processing

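Each condition is 1 library, so no alternative says anything about differences between mice. With median-ratio scaling the log2 ratios in macrophage-like cells were -0.47 for *Cxcl9*, -0.37 for *Cxcl10* and -0.17 for *Cxcl16*. With UT cluster weights *Cxcl9* was at -0.44 and *Cxcl16* at -0.14, and without the 5 highest cells *Cxcl9* was at -0.72 and *Cxcl10* at -0.56. *Cxcl10* was at -0.52 with the stricter cell filter and -0.53 at resolution 1.0, and *Cxcl16* at -0.16 in thinned cells. In tumor-like cells *Cxcl10* was at -0.80 with the stricter filter, -0.77 with 30 components, -0.18 without high doublet scores and at 0.34, on the other side of 0, in thinned cells. The cause of these shifts was not tested. The 2 lower genes in CD8 T-like cells became 0 at 200 UMIs and 1 at 2-fold. Every other alternative run kept the sign of the 6 ratios tried, those of *Cxcr3* and *Cxcr6* in CD8 T-like cells included. At 2000 UMIs per cell only 8 and 4 *Cxcr3* UMIs remained in CD8 T-like cells. No paired analysis was possible because each condition has 1 library and no test was made.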

Other observations

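Among cells not described above, neutrophil-like cells had 376 CPM of *Cxcl10* in UT (498 UMIs in 81 of 617 cells) and 117 CPM in BUP-Gel (129 UMIs in 37 of 427 cells), a log2 ratio of -1.69 (-1.98 to -1.41). *Cxcl11* had 81 and 11 UMIs there, a ratio of -2.62 (-3.68 to -1.70). The 5 highest cells held 35.9% and 59.7% of the *Cxcl10* UMIs, and the summed macrophage genes had 785 and 430 CPM in the same cells, whose part in these differences was not tested.

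Fibroblast-like cells, 15 in UT and 64 in BUP-Gel, had 5 and 276 UMIs of *Cxcl9*, or 17.2 and 193 CPM. In BUP-Gel 14 cells had a UMI and 5 of them held 81.5% of the UMIs. The summed macrophage genes had 37.7 and 366 CPM in these cells, and their part in the *Cxcl9* difference was not tested.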
